A study of Mus musculus with 6 samples.

Results

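The genes described here encode channels that let calcium into the cell and the sensors that open them. They are Trpc1 and Trpc6 of the TRPC family, Trpv4 and Trpv6 of the TRPV family, the store-operated channel Orai1 with its sensors Stim1 and Stim2, and the stretch-activated channels Piezo1 and Piezo2. All 9 are among the 54418 genes of the deposited count table, and all 9 passed the filter on low counts. Their list was chosen by results of these same data: Trpc6 was selected on its difference between the genotypes in these 6 libraries, where it passed the thresholds of the DESeq2 procedure that the study used, and the other 8 were added to it as calcium entry genes. The genotype difference of Trpc6 is therefore given as a description, without a p-value.

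The libraries were made from mammary cells of C57BL/6 females that were 4 weeks old, 3 of them Glis2+/+ (labelled WT) and 3 Glis2-/- (labelled KO), with 1 library per mouse. The knockout is germline, so that every cell of the Glis2-/- mice carried it, and Glis2 codes for a zinc finger repressor related to the GLI factors. Dissociated cells were stained for TER-119, CD31 and CD45, which mark red cells, endothelium and leukocytes, and for CD24 and CD49f, and were sorted by FACS. The study calls the sorted cells mammary epithelial, and the gate that was collected is not given in the sources used here. The comparison asked which genes change in mammary epithelium when Glis2 is lost.

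Calcium enters epithelial cells by several routes. TRPC channels open downstream of receptors that activate phospholipase C, and TRPC6 responds to the lipid diacylglycerol. When the stores of the endoplasmic reticulum are emptied, STIM proteins in its membrane sense the loss and open ORAI channels at the plasma membrane. TRPV4 responds to osmotic and mechanical stimuli, TRPV6 is a calcium-selective channel of absorptive epithelia, and PIEZO channels open when the membrane is stretched. In the mammary gland, calcium signals drive the contraction of basal (myoepithelial) cells upon oxytocin, and calcium entry supplies the calcium of milk.

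Total estimated counts lay between 24996524 and 31393917 per library. Glis2 itself was not absent from the Glis2-/- libraries, at 252 to 510 counts against 510 to 671 in Glis2+/+, and the genotype is taken from the labels. In CPM, Glis2 was lower without overlap, at 10.1 to 17.0 against 19.6 to 23.2 (log2 fold change −0.57, standard error 0.22, adjusted p = 0.906 from edgeR), whereas in TPM, which also divides by transcript length, it overlapped, with means of 19.2 in Glis2-/- and 18.8 in Glis2+/+ libraries. Markers of basal and luminal cells were abundant in every library, all 12 and all 13 of them above the count filter. Defining genes of cells outside the epithelium were also detected: summed levels lay between 2430 and 8190 CPM (counts scaled to library size) for 10 fibroblast markers, 162.1 and 887.4 CPM for 10 endothelial markers, 326.6 and 578.9 CPM for 9 pericyte and vascular smooth muscle markers and 25.3 and 93.4 CPM for 10 immune markers, and no marker was at 0 in all libraries. In such bulk samples, fewer cells of a type and less RNA per cell cannot be told apart.

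Trpc6 (ENSMUSG00000031997, chromosome 9, 8544142 to 8680741 of GRCm38, plus strand) was higher in the Glis2-/- libraries. Its counts were 1000, 503 and 688 in Glis2+/+ mice 1, 2 and 3, and 1695, 1496 and 1611 in Glis2-/- mice 1, 2 and 3. Scaled to library size by edgeR's TMM method, these were 32.4, 17.6 and 26.4 CPM against 67.7, 49.9 and 51.5 CPM. Every Glis2-/- mouse thus lay above every Glis2+/+ mouse, with the gap between the Glis2+/+ mouse 1 and the Glis2-/- mouse 2. The means were 25.5 ± 7.45 CPM (SD, n = 3) and 56.4 ± 9.86 CPM (SD, n = 3), a 2.21-fold difference and a log2 fold change of 1.15 (standard error 0.23). With each mouse left out in turn the log2 fold change lay between 0.94 and 1.34.

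How many genes were called depended on the test. The quasi-likelihood test of edgeR, at thresholds of 0.05 for the adjusted p and 0.58 for the size of the log2 fold change, called 0 of 21236 genes (0%), and so none of the 9 members, while 1130 genes (5.32%) had an unadjusted p under 0.05. DESeq2 with apeglm shrinkage called 45 of 27000 genes (0.167%), Trpc6 being the only member among them. In CPM, the groups did not overlap for 11.7% of all genes tested, with 6.23% higher and 5.5% lower in Glis2-/- libraries, and among the members they did not overlap for Trpc6 alone. Since Trpc6 was picked from this contrast, nothing is read from its place in these counts.

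**Figure D1:**
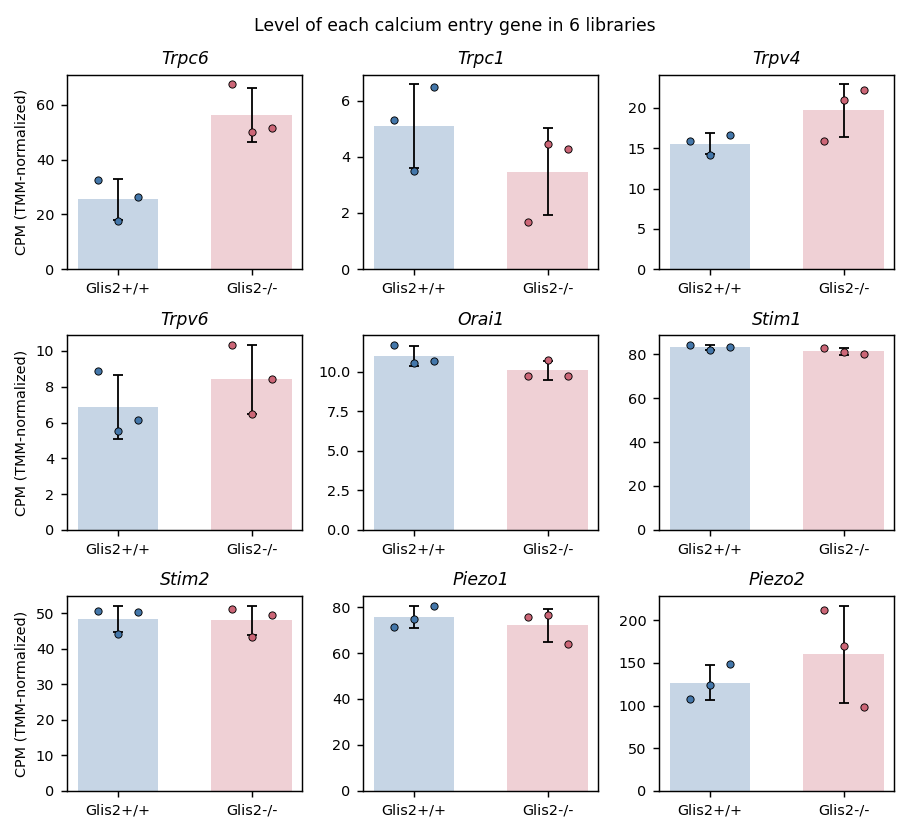
Level of each of the 9 genes in CPM (counts scaled to library size after TMM normalization, linear axes from 0) in the Glis2+/+ and Glis2-/- libraries, with 1 point per mouse, bars for the mean and error bars for the SD of 3 mice. The Trpc6 points run from 17.6 to 32.4 CPM in Glis2+/+ and from 49.9 to 67.7 CPM in Glis2-/- mice, while the points of the 8 other genes overlap between the genotypes.

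A noncoding gene on the opposite strand, Gm32014, overlaps Trpc6 and had 50, 81 and 120 counts in the Glis2+/+ and 128, 196 and 104 counts in the Glis2-/- libraries. Its CPM values overlapped between the genotypes. The library kit keeps the strand, but the sources used here do not say whether the strand was used in quantification. With the counts of both genes added together, the log2 fold change of Trpc6 was 1.11 (standard error 0.21).

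Basal cell markers, taken as a set, were also higher in Glis2-/- libraries. All 12 basal markers had a positive log2 fold change (median 0.38, against 0.01 for all genes tested), and 0 of them passed edgeR's thresholds. Cnn1, Tagln and Oxtr did not overlap between the genotypes, while the other basal markers did, with Krt5 at 0.13. The summed level of the 12 was 6253, 5730 and 4895 CPM in the Glis2+/+ libraries and 6944, 6631 and 7999 CPM in the Glis2-/- libraries, without overlap and 1.28-fold higher in Glis2-/- mice. Myh11 and Acta2 were the largest parts of the sum. It did not follow Trpc6 mouse by mouse, being highest in Glis2-/- mouse 3, while Trpc6 was highest in Glis2-/- mouse 1. Set against this sum, Trpc6 stood at 5.18, 3.07 and 5.39 CPM per 1000 CPM of basal markers in Glis2+/+ and at 9.75, 7.53 and 6.44 in Glis2-/- libraries, again without overlap and 1.77-fold higher. The 9 pericyte and vascular smooth muscle markers, chosen for other contractile cells, all had negative log2 fold changes (median −0.38). Their sums overlapped, at 329.3 to 578.9 CPM in Glis2+/+ and 326.6 to 439.0 CPM in Glis2-/- libraries. Notch3 alone gave 215.9 to 234.3 CPM of these in Glis2+/+ and 148.9 to 202.3 CPM in Glis2-/- libraries. Contractile genes such as Acta2 and Myh11 were counted in the basal list only. The summed level of the 10 immune markers was also higher in Glis2-/- libraries without overlap, at 48.4 to 93.4 CPM against 25.3 to 47.3 CPM, with 8 of the markers positive and 2 negative. The sums of luminal markers overlapped, at 4442 to 7798 CPM and 4292 to 7769 CPM. The part of basal cell content in the Trpc6 difference was not tested beyond these values.

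**Figure D2:**
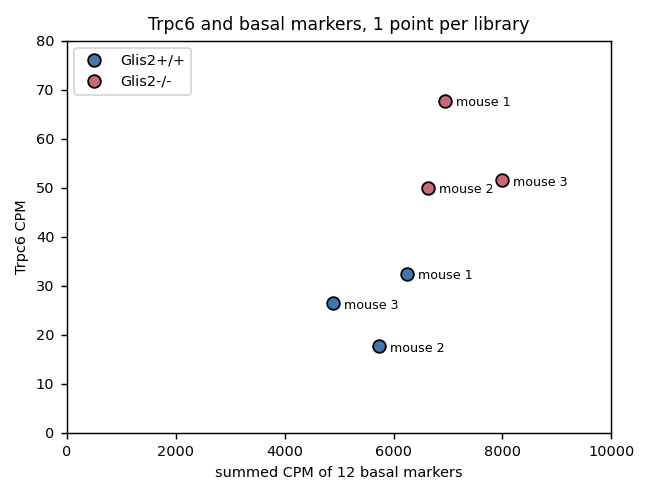
Trpc6 level (CPM) against the summed level of 12 basal markers (CPM) in each of the 6 libraries, with linear axes from 0. The Glis2-/- libraries lie to the right of the Glis2+/+ libraries (6631 to 7999 against 4895 to 6253 CPM) and above them (49.9 to 67.7 against 17.6 to 32.4 CPM).

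Sequence upstream of the start was read from RefSeq promoters of GRCm38.p6 for 8 of the 9 genes. Each window of 300 bases, 250 before and 50 after the start, was searched on both strands for the GLI motif GACCACCCA and for the run GGGGGG that forms the core of sites bound by GLIS proteins, and these motifs do not overlap each other. The GLI motif was in none of the 8 windows and in 0.253% of all 32851 windows. The G run was in 3 of the 8 windows, those of Stim1, Stim2 and Piezo1, and in 17.9% of all windows. Neither was in the window of Trpc6, which says only that these letters are not there. The 250 bases before the start are shown for Trpc6 as the gene that separated the genotypes, for Trpc1 as its family partner and for Stim1 as the gene whose level varied least. They lie at chr9:8543892-8544141 (plus strand), chr9:95750349-95750598 (minus strand) and chr7:102267569-102267818 (plus strand), are written 5′ to 3′ on the strand of the gene, and carry the G run in capitals.
Trpc6: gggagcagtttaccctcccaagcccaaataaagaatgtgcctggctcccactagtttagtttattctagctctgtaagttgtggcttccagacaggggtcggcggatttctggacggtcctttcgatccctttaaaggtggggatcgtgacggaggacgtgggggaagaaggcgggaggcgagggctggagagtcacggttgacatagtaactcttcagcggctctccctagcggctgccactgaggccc
Trpc1: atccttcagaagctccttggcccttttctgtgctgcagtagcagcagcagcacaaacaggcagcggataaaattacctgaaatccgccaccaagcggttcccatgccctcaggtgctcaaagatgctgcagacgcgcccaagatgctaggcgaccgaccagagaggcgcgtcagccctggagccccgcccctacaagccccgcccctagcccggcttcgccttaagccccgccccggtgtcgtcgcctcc
Stim1: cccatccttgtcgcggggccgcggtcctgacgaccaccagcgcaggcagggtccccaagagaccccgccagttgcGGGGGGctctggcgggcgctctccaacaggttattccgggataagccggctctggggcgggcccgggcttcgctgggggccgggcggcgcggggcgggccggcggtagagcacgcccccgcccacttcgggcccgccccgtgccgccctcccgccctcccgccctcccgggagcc
Their GC content was 56.4%, 62.8% and 78.4%, against a median of 52.4% over all windows.

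Trpc1, which can join other TRPC subunits in a channel, had the fewest counts of the 9 genes over all libraries and pointed the other way. Trpc1 (ENSMUSG00000032839, chromosome 9, 95705082 to 95750375, minus strand) had 164, 100 and 169 counts in Glis2+/+ and 42, 133 and 134 counts in Glis2-/- libraries, or 5.31, 3.50 and 6.49 CPM against 1.68, 4.44 and 4.28 CPM. Glis2-/- mouse 1 had the lowest value, and the groups overlapped. The log2 fold change of Trpc1 was −0.55 (95% interval −1.54 to 0.43, adjusted p = 0.941 from edgeR), and leaving out 1 mouse at a time moved it between −0.77 (without Glis2-/- mouse 2) and −0.23 (without Glis2-/- mouse 1). Per length the genotypes did not overlap: TPM values, in which counts are divided by transcript length and scaled to a common total, were 7.73, 4.84 and 4.47 in Glis2+/+ and 1.86, 2.48 and 2.31 in Glis2-/- libraries. These values leave out the gene Gm23935 from the total. In limma, log2(TPM + 0.1) was taken from the TPM as deposited, where the mean of Trpc1 was 0.61 TPM. The difference was then −1.20, on a scale where the median of all genes lay at −0.14. TPM divides by the transcript length estimated in each library, and what parts the TPM and count values of Trpc1 was not tested. Trpc6 exceeded Trpc1 by 1.60 to 2.92 times in TPM within the Glis2+/+ libraries and by 8.64 to 16.6 times within the Glis2-/- libraries.

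**Figure D3:**
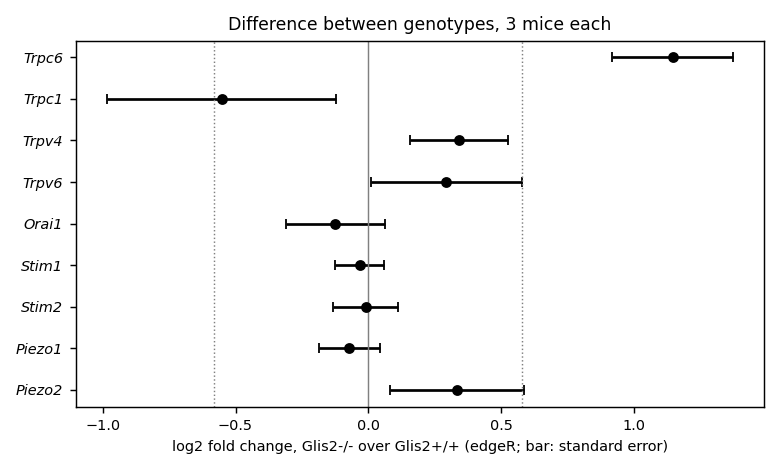
Log2 fold change of each gene, Glis2-/- over Glis2+/+, from edgeR with its standard error (3 mice per genotype), with a line at 0 and dotted lines at an absolute log2 fold change of 0.58. Trpc6 lies at 1.15, Trpc1 at −0.55, and the other 7 genes between −0.12 and 0.34.

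The other 8 genes had adjusted p values between 0.920 and 0.998 in edgeR, and 0 of them had an unadjusted p under 0.05. Among the TRPV channels, Trpv4 (ENSMUSG00000014158, chromosome 5, 114622152 to 114658421) had 15.8, 14.1 and 16.7 CPM in Glis2+/+ and 15.9, 20.9 and 22.2 CPM in Glis2-/- libraries. Mice 2 and 3 of the Glis2-/- group lay above all Glis2+/+ mice and mouse 1 among them. The log2 fold change of Trpv4 was 0.34 (95% interval −0.08 to 0.76, adjusted p = 0.920 from edgeR). Trpv6 (ENSMUSG00000029868, chromosome 6, 41620624 to 41636405), the calcium-selective channel, had 8.88, 5.53 and 6.14 CPM against 10.4, 6.48 and 8.40 CPM. The groups overlapped, and the log2 fold change of Trpv6 was 0.29 (95% interval −0.36 to 0.95). Within a library, Trpv4 stood above Trpv6 by 1.48 to 5.10 times in TPM.

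In CPM, the store-operated genes varied little between the 6 mice. Stim1 (ENSMUSG00000030987, chromosome 7, 102267806 to 102437319), the main store sensor, had 84.2, 81.9 and 83.4 CPM in Glis2+/+ and 82.9, 80.8 and 80.2 CPM in Glis2-/- libraries. From the lowest to the highest library this was a 1.05-fold range. The log2 fold change of Stim1 was −0.03 (95% interval −0.24 to 0.18). Stim2 (ENSMUSG00000039156, chromosome 5, 53998499 to 54121057), a sensor that answers smaller losses from the stores, had 43.3 to 51.3 CPM over the 6 libraries and a log2 fold change of −0.01 (95% interval −0.29 to 0.26). Orai1 (ENSMUSG00000049686, chromosome 5, 123015074 to 123030456), the channel pore, had 11.7, 10.6 and 10.7 CPM in Glis2+/+ and 9.75, 10.7 and 9.71 CPM in Glis2-/- libraries. Its groups overlapped, and the log2 fold change of Orai1 was −0.12 (95% interval −0.55 to 0.30).

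The Piezo genes differed in how much they varied. Piezo1 (ENSMUSG00000014444, chromosome 8, 122481698 to 122551329) had 71.6, 74.8 and 80.7 CPM in Glis2+/+ and 75.5, 76.8 and 63.9 CPM in Glis2-/- libraries. These overlapped, and the log2 fold change of Piezo1 was −0.07 (95% interval −0.33 to 0.19). It overlaps Ctu2 on the opposite strand, which had 472 to 696 counts per library against 1890 to 2300 for Piezo1. Piezo2 (ENSMUSG00000041482, chromosome 18, 63010213 to 63387183) had 107.9, 124.3 and 148.6 CPM in Glis2+/+ and 212.1, 169.4 and 98.7 CPM in Glis2-/- libraries, so that the Glis2-/- group held both the highest and the lowest mouse. The log2 fold change of Piezo2 was 0.33 (95% interval −0.24 to 0.91), and leaving out 1 mouse moved it between 0.07 (without Glis2-/- mouse 1) and 0.57 (without Glis2-/- mouse 3).

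The spread between mice of a genotype was also set beside that of genes of a like level, those within 0.5 of the gene's mean log2 CPM. It was 0.02 on the log2 CPM scale for Stim1 and 0.08 for Orai1, and 0.213% and 0.810% of the genes at their levels varied less. It was 0.43 for Piezo2 and 0.36 for Trpc6, and 95.0% and 88.7% of the genes at their levels varied less. Trpc1 had the widest spread of the 9 genes, 0.63, but at its low level 77.0% of the genes varied less. For Trpv4, Trpv6, Stim2 and Piezo1, 27.8% to 48.9% of the genes at their levels varied less.

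Levels of different genes were compared per length, in TPM rescaled after leaving out Gm23935, a gene that held 83.0% to 85.7% of all TPM. Stim1 was the highest of the 9 genes, at 41.2 ± 2.64 TPM (SD, n = 6), followed by Piezo2 at 31.5 ± 7.39 TPM (SD, n = 6), with Stim1 above Piezo2 in 5 of 6 libraries. Trpc6, Piezo1 and Stim2 came next, with means of 18.6, 16.6 and 15.4 TPM and overlapping ranges, then Trpv4 and Orai1 with 11.6 and 11.3 TPM, also overlapping. Trpc1 and Trpv6 were the lowest, at 3.95 and 3.89 TPM. Orai1 was above Trpc1 in 6 of 6 libraries without overlap of their ranges, and it was the only neighbour in this order for which the ranges of 6 libraries did not overlap. Trpc6 had the sixth highest mean of the 9 in Glis2+/+ and the third highest in Glis2-/- libraries. Stim1 exceeded Orai1 by 3.15 to 3.84 times and Stim2 by 2.22 to 3.38 times within a library. Piezo1 did not overlap between the genotypes on this scale, at 17.5 to 19.3 TPM in Glis2+/+ and 13.2 to 16.5 TPM in Glis2-/- libraries, although its CPM values did. The same held for Orai1 by a narrow margin, at 10.8 to 14.3 TPM against 10.2 to 10.6 TPM. Of the 9 genes, 1 (Trpc6) was thus higher and 3 (Trpc1, Piezo1 and Orai1) were lower in Glis2-/- libraries without overlap in TPM. Over all 21235 genes with such values, 3.88% were higher and 7.86% lower without overlap. With the TPM as deposited, the median log2 difference of all genes was −0.06 with log2(TPM + 1) and −0.14 with log2(TPM + 0.1).

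**Figure D4:**
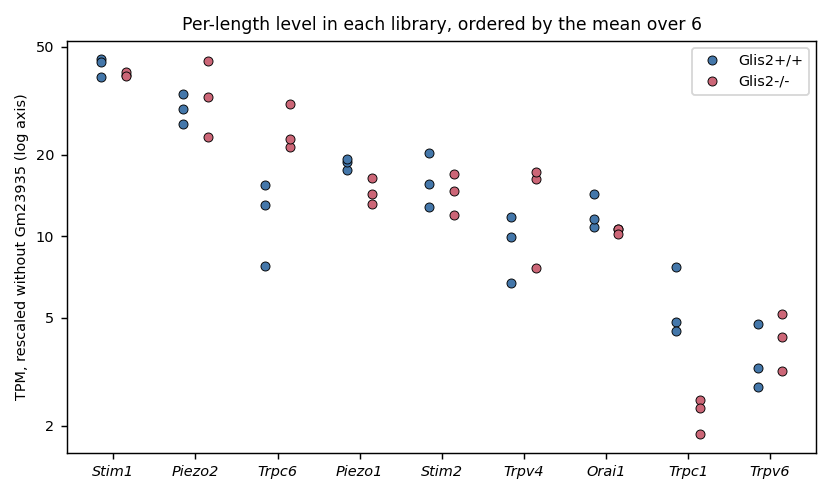
Per-length level (TPM rescaled without Gm23935, log axis) of the 9 genes, ordered by the mean over 6 libraries, with 1 point per library and the genotypes side by side. Stim1 leads at 38.8 to 44.9 TPM, Trpc1 and Trpv6 lie between 1.86 and 7.73 TPM, and Trpc6 spans 7.76 to 30.9 TPM.

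Genes whose log2 CPM over the 6 libraries was much like that of Trpc6 included Sdf4 (Pearson's r = 0.986), Lamp5 (0.986), Gm2237 (0.982) and Fam221b (0.981). Of 15213 protein-coding genes, 41 exceeded an r of 0.95, and with 6 libraries in separate genotypes these values are a description. Sdf4 followed the order of the mice closely with a small range, 1.11-fold between the genotypes, whereas Lamp5 differed 4.07-fold. Among the other members, r with Trpc6 was 0.75 for Trpv6, 0.60 for Trpv4 and 0.41 for Piezo2, and −0.49 for Trpc1 and −0.51 for Orai1.

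The wider calcium machinery was followed in 12 lists with 150 genes in the table, of which 120 passed the filter. Of these 120 genes, 0 passed edgeR's thresholds, and 10 (8.33%) had an unadjusted p under 0.05, 7 higher and 3 lower in Glis2-/- libraries, against 5.32% of all genes tested. This count was 4 with either TPM scale in limma and 6 without Glis2+/+ mouse 3, fits for which the share of all genes was not taken. The groups did not overlap for 12 higher (10.0%) and 3 lower genes (2.50%), against 6.23% and 5.5% of all genes. Their median log2 fold change was 0.05. DESeq2 called Cacna1g alone.

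Of 24 other TRP channels, 14 passed the filter, 6 with a positive and 8 with a negative log2 fold change, and 0 had an unadjusted p under 0.05. Trpm7, a channel that also passes magnesium, was the highest of them at 61.2 TPM with a log2 fold change of −0.05 (standard error 0.11), and Trpm4, a sodium channel that calcium opens, stood at 29.5 TPM with 0.17 (standard error 0.21). Of the 5 further genes of store-operated entry, 4 were positive and 1 negative, with Saraf, which slows this entry, at 47.3 TPM and a log2 fold change of 0.09 and Orai3 at 9.84 TPM and 0.17.

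Voltage-gated channels held the member of these lists with the smallest adjusted p. Cacna1g, the pore of a T-type channel, had 14.8, 8.02 and 11.1 CPM in Glis2+/+ and 22.4, 21.9 and 30.5 CPM in Glis2-/- libraries, without overlap. The log2 fold change of Cacna1g was 1.14 with a standard error of 0.25, and its adjusted p was 0.856 in edgeR and 0.0261 in DESeq2. Cacna1c, the pore of an L-type channel and the highest pore gene by its mean over 6 libraries (10.3 TPM), differed by −0.07 on the log2 scale (standard error 0.25). In Glis2-/- libraries alone its mean was 9.82 TPM, against 10.0 TPM for Cacna1g. Of the 8 pore genes tested, 3 were positive and 5 negative. Of 10 auxiliary subunits, 6 were positive and 4 negative. Cacnb2 had 120, 36 and 102 counts in Glis2+/+ and 25, 17 and 15 counts in Glis2-/- libraries, and the highest of them, Cacnb3 and Cacna2d1, had log2 fold changes of 0.25 and 0.03.

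Upstream of TRPC channels, 21 genes for Gq proteins, phospholipase C and diacylglycerol kinases were tested, 11 positive and 10 negative with a median log2 fold change of 0.00. Plcg1, which cuts the membrane lipid that yields diacylglycerol, had 179.1, 131.3 and 142.0 CPM in Glis2+/+ and 201.2, 176.9 and 224.8 CPM in Glis2-/- libraries, which overlapped. The kinases Dgka and Dgkz, which remove diacylglycerol, differed by 0.26 each on the log2 scale, and their groups did not overlap. Each of these 3 genes had an unadjusted p under 0.05 and an adjusted p of 0.906 from edgeR.

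Store release and refilling genes were near 0 at their highest members. Itpr1 and Itpr2, receptors that release stored calcium, had log2 fold changes of 0.04 and 0.11, and the pumps Atp2a2 and Atp2c1 had −0.02 and 0.06. Atp2a3, a further pump of the endoplasmic reticulum, had 44.2, 38.5 and 54.2 CPM in Glis2+/+ and 28.9, 31.5 and 27.5 CPM in Glis2-/- libraries, without overlap (log2 fold change −0.64, standard error 0.15, adjusted p = 0.906 from edgeR). Of the 11 genes of calcium extrusion tested, 5 were positive and 6 negative, with Atp2b1 at −0.12 and Atp2b4 at −0.15, while Atp2b3 had 7, 1 and 0 counts in Glis2+/+ and 34, 16 and 51 counts in Glis2-/- libraries. The 7 genes of the mitochondrial uniporter, 5 positive and 2 negative, included Micu2 at 0.04 and Smdt1 at −0.05.

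Downstream of calcium entry, 12 calcineurin and NFAT genes were tested, 7 positive and 5 negative. Ppp3ca, a catalytic subunit of calcineurin, had 89.1, 88.9 and 97.7 CPM in Glis2+/+ and 116.4, 106.0 and 111.5 CPM in Glis2-/- libraries, without overlap (log2 fold change 0.28, standard error 0.10). Rcan2, which inhibits calcineurin, differed by −0.76 (standard error 0.31) with overlapping groups, and both genes had an adjusted p of 0.906 from edgeR. Ppp3r1 and Nfat5, the highest of the list, had log2 fold changes of 0.19 and −0.04. In the list for lactation and vitamin D, Vdr, the vitamin D receptor, had 54.2, 68.5 and 54.9 CPM in Glis2+/+ and 72.4, 74.3 and 71.3 CPM in Glis2-/- libraries, without overlap (log2 fold change 0.29, adjusted p = 0.906 from edgeR). S100g, a calcium-binding protein, differed by −0.64 on the log2 scale (standard error 0.92). Of 14 other mechanosensitive channels and Piezo partners, 11 were positive and 3 negative, with Tmem63b and Tmc4 highest and with log2 fold changes of 0.11 and 0.20.

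**Figure D5:**
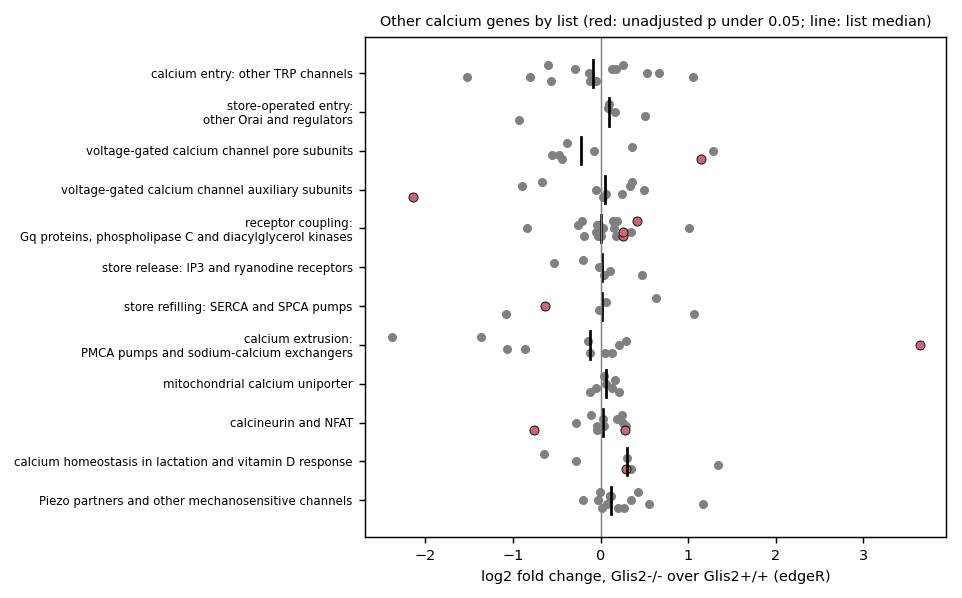
Log2 fold change from edgeR, Glis2-/- over Glis2+/+, of the 120 tested genes in 12 lists of calcium genes, with 1 point per gene, a vertical line for the median of each list and red points for the 10 genes with an unadjusted p under 0.05. List medians lie between −0.23 for voltage-gated pores and 0.30 for the lactation and vitamin D list, and the red point farthest to the right is Atp2b3, which rests on 0 to 51 counts per library.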

How the data were processed

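Sorted mammary cells of 3 Glis2+/+ and 3 Glis2-/- mice were compared, with groups taken from the labels. The authors quantified 40-nt read pairs with Salmon 1.2.1 against mm10 and deposited estimated counts, made whole, and, through tximport, log2-scaled TPM (offset 1). Estimated counts depend on how reads were shared between overlapping transcripts. Symbols and positions came from GENCODE M21 (GRCm38), which matched 54166 of 54418 identifiers, and upstream sequence from RefSeq (GRCm38.p6).

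Counts were filtered with filterByExpr, normalized by TMM and fitted by edgeR 4.0.16 (R 4.3.3, quasi-likelihood, no covariates), with Benjamini-Hochberg adjustment over all 21236 genes. Alternatives were DESeq2 1.42.0 with apeglm 1.24.0, DESeq2 size factors, other count filters, the log2 TPM values in limma 3.58.1, fits with the replicate number as a block, and fits without each mouse. For levels, TPM was rescaled to its usual total without Gm23935.

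Members, lists and markers were chosen with earlier results of these data known. Beside the members, the 2 highest genes of each list and those with an unadjusted p under 0.05 are named, as are genes among the 5 with the highest correlation with Trpc6. Some genes that these rules or lists hold are not reported here. Intervals are for the log2 fold change in the edgeR fit, in which the variance of a gene is estimated with the help of the other genes. They are not the spread between mice. Stimate and Strit1 were not matched, and protein sequences were not used here.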

Additional observations from a re-analysis of the deposited data

How the results depend on the processing

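Genes called numbered 0 of 21236 in edgeR's quasi-likelihood test (1130 at an unadjusted p under 0.05), 45 with DESeq2 and apeglm, 40 without a filter on low counts, 1 with log2(TPM + 0.1) in limma, and 0 in all other fits, with 0 to 0 when a mouse was left out. Of the 9 members, 0 were called, but 1, Trpc6, with DESeq2 and 1 without the filter, and 0 to 0 without a mouse. In the wider lists 10 genes had an unadjusted p under 0.05, against 4 with log2(TPM + 1) and 4 with log2(TPM + 0.1) in limma and 6 (without Glis2+/+ replicate 3) to 15 (without Glis2+/+ replicate 2) when a mouse was left out. The share of all genes under this p was taken only for edgeR's test on all 6 libraries without a block, at 5.32%.

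Over 15 alternatives, 2 of them chosen after seeing the data, the log2 fold change of Trpc6 ranged from 0.71 with log2(TPM + 1) to 1.34. It was positive in each, which is no support, since Trpc6 was picked on this difference in these libraries. Among the other members only Stim2 changed sign, between −0.07 and 0.05 without a mouse. With a replicate block, 0 genes and 0 members were called, and 13 genes of the wider lists had an unadjusted p under 0.05. Trpc6 then stood at 1.17, with a standard error of 0.15, against 0.23 without the block. Deviations from the group mean over the genes tested were weakly correlated between mice that share a number (−0.02, 0.17 and 0.02). This cannot show whether such mice shared a litter or a day of sorting, and the labels name no pairing. The cause of these differences between fits was not tested. Trpc1, with 42 to 169 counts per library, has the widest standard error of the members (0.43).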
